A study of Mus musculus with 161 samples.

Results

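The genes described here encode 8 mouse myeloid surface receptors: Sirpa, Sirpb1a, Sirpb1b and Sirpb1c of the signal regulatory protein (SIRP) family, and Pirb, Lilrb4, Pilra and Pilrb1 of the paired immunoglobulin-like receptors. They are 8 of the 43280 rows of a TPM table (abundance of a transcript per unit of length, scaled to a fixed total in each cell). They were chosen by name with their TPM levels in the cells already known, so their levels and the differences between groups are given as descriptions, with no test.

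Single cells of C57BL/6 mice, primary and untreated by their labels, were captured on the Fluidigm C1 system, which makes 1 cDNA library per captured cell. The 66 common monocyte progenitors (cMoP) were sorted from bone marrow as lineage-negative, CD117+, CD115+, CD135- and Ly6C+. The 57 bone marrow (BM) monocytes were sorted in the same way but as CD117-, and the 38 blood monocytes as CD115+, CD11b+ and Ly6C-high. All cells carried the same strain label, and no reporter, Cre allele or agent is named for any of them. No label names an animal or says how many were pooled, so each group counts as 1 sample of cells, SDs run over cells, and there is no replicate check on any difference between groups.

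Paired receptors come as inhibitory and activating members with very similar outer domains. An inhibitory member carries immunoreceptor tyrosine-based inhibition motifs (ITIMs) in its cytoplasmic tail, which once phosphorylated recruit the phosphatases SHP-1 and SHP-2 (Ptpn6 and Ptpn11). An activating member has a short tail and signals through a partner with an activation motif, DAP12 (Tyrobp) or the Fc receptor gamma chain (Fcer1g). Sirpa binds CD47, the "do not eat me" signal on other cells. Pirb binds MHC class I, Lilrb4 (gp49B) is an inhibitory receptor of myeloid and mast cells, and Pilra is the inhibitory partner of Pilrb1. Sirpb1a, Sirpb1b, Sirpb1c and Pilrb1 are of the activating kind.

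The difference in the tail can be read from the reference transcripts (GENCODE M21, GRCm38). After the most hydrophobic stretch of the reading frame, 117 codons follow in Sirpa, 178 in Pirb, 74 in Lilrb4 and 85 in Pilra. Only 7 follow in each of Sirpb1a, Sirpb1b and Sirpb1c, and 8 in Pilrb1. The ITIM consensus (isoleucine, leucine, valine or serine, any residue, tyrosine, any residue, any residue, then isoleucine, leucine or valine) was found 3 times in the tail of Sirpa, 3 times in Pirb, 2 times in Lilrb4 and 1 time in Pilra. It was found 0 times in the other 4. The lines below show 1 such site of each inhibitory member as 30 coding bases with the tyrosine codon in capitals, since this codon separates both kinds of receptor.
Sirpa, tyrosine codon 436 of 509: aacgacatcacaTACgcagacctgaatctg
Pirb, tyrosine codon 794 of 841: caggatgtgaccTATgcccagctgtgcagc
Lilrb4, tyrosine codon 322 of 335: caggatgtaaccTATgcccagttgtgcatc
Pilra, tyrosine codon 267 of 302: aataacatcgtgTATgcttccatctccctc

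Sirpb1a, Sirpb1b and Sirpb1c are near copies. They lie side by side on the minus strand at chr3:15371653-15426520, chr3:15495751-15575065 and chr3:15795145-15848528 (GRCm38), and over 1176 aligned coding bases any pair of them is 97.4 to 98.3% identical. The 3 sequences differ at 40 positions in all, and the 90 coding bases with the most of these, bases 177 to 266, hold 10. Those 10 are in capitals below, since only reads over such bases tell the copies apart.
Sirpb1a: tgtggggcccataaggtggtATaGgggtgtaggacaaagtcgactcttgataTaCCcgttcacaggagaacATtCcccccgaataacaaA
Sirpb1b: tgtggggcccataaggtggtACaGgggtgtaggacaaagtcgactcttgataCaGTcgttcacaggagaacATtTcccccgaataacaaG
Sirpb1c: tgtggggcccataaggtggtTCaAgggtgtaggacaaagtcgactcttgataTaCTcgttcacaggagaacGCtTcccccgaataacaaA
Of the 50-base words of the Sirpb1c coding sequence, 68.6% also occur in another SIRP row; the share was 63.8% for Sirpb1b, 34.1% for Sirpb1a and 0% for Sirpa. Pirb shares 45.2% of its words with the activating PIR-A genes, Lilrb4 shares 21.2% with Gp49a (Lilr4b in GENCODE), Pilra 103 of its 860 words with Pilrb1 and Pilrb2, and Pilrb1 22.4% with Pilra and Pilrb2. Reads from such stretches were divided among copies when TPM was estimated. The split between Sirpb1a, Sirpb1b and Sirpb1c, and between Pirb and the PIR-A genes, is therefore uncertain, and sums over copies are given beside the single rows.

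The libraries differed in ways that touch every comparison. The median number of genes above 1 TPM was 6661.5 in cMoP, 4719 in BM and 4319.5 in blood monocytes, and the read depth is unknown. More than 15% of the TPM came from mitochondrial genes in 11 cMoP libraries, and ribosomal protein genes held under 2% in 3 cMoP and 1 blood library. By their labels 60 cMoP libraries came from lane 2 of another flow cell and 6 carry no flow cell. All 95 monocyte libraries came from lane 5 of the same flow cell. Differences between cMoP and monocytes therefore cannot be told apart from the flow cell, while BM and blood monocytes share theirs. The gate genes followed the labels: Kit (CD117) had a median of 2.79 TPM in cMoP and was listed at 0 in 57 of 57 BM monocytes, and Ly6c2 was above 0 in every cell. Csf1r (CD115) was listed at 0 in 6 cMoP, 5 BM and 1 blood monocytes, so a 0 in this table does not show that a cell lacks a transcript. Markers of other cells were present in part. Of the B cell list 5 of 9 genes in the table were at 0 in all cells (Cd79a among them), of the T cell list 4 of 10 (Cd3e and Trac among them) and of the NK cell list 4 of 10 (Ncr1 and Gzma among them). Others of these lists were present: Cd79b averaged 95.6 TPM in cMoP and 47.9 in blood monocytes, with B cell sums of up to 942.5 and 1050 TPM in a cell, and Lck averaged 21.8 TPM in BM monocytes, where the T cell sum reached 1001 TPM. The summed neutrophil list ran from 33.9 to 21482 TPM per cMoP, 4.60 to 2205 per BM monocyte and 1.19 to 1991 per blood monocyte, led in cMoP by Elane, which these progenitors share with neutrophil precursors. Ngp, Mmp9 and Retnlg, 3 of the 12 genes of the neutrophil list, were at 0 in all cells. Nkg7 of the NK cell list averaged 301.1 TPM in cMoP and was at 0 in all monocytes. Dendritic cells and macrophages also carry Sirpa. The summed conventional dendritic cell list had medians of 3.97, 2.19 and 4.59 TPM in cMoP, BM and blood monocytes. The plasmacytoid list had medians of 61.45, 17.85 and 18.6 TPM, and the macrophage list 6.08, 1.75 and 2.43 TPM. Among BM monocytes single cells reached 2186, 1547 and 1001 TPM in this order of lists. The part of these marker levels in the differences below was not tested.

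All 8 receptor genes had a higher mean in BM monocytes than in cMoP by at least 1 on the scale of mean log2(TPM + 1), the size rule used here in place of a test. Over the 14003 measured genes, those that exceeded 1 TPM in 10% or more of a group, 3.94% were higher by that much and 30.8% were lower. The same 8 of 8 were higher in blood monocytes than in cMoP, where 4.28% of genes were higher and 37.7% lower. The members were chosen with these levels known, so nothing is read from the counts. The median difference of the 8 was 4.25 for BM monocytes minus cMoP and 5.73 for blood monocytes minus cMoP, against -0.45 and -0.58 over all measured genes. Both comparisons share the cMoP cells. Sirpb1a, Sirpb1b and Sirpb1c passed the 10% filter only through the monocytes, and the other 5 passed in every group.

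Between both monocyte groups the genes parted. Sirpb1a, Sirpb1c, Pilra and Pilrb1 were higher in blood by 1 or more, 4 of 8, and 0 of 8 were lower by that much. Of all measured genes 1.96% were higher and 9.66% lower. The median difference of the 8 was 1.39, against -0.10 over all genes. This comparison shares the BM monocytes with the first. The count depended on the measure: it was 2 on the log2 ratio of mean TPM, 3 with a pseudocount of 10, and 6 among cells with 4500 to 6000 genes.

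**Figure D1:**
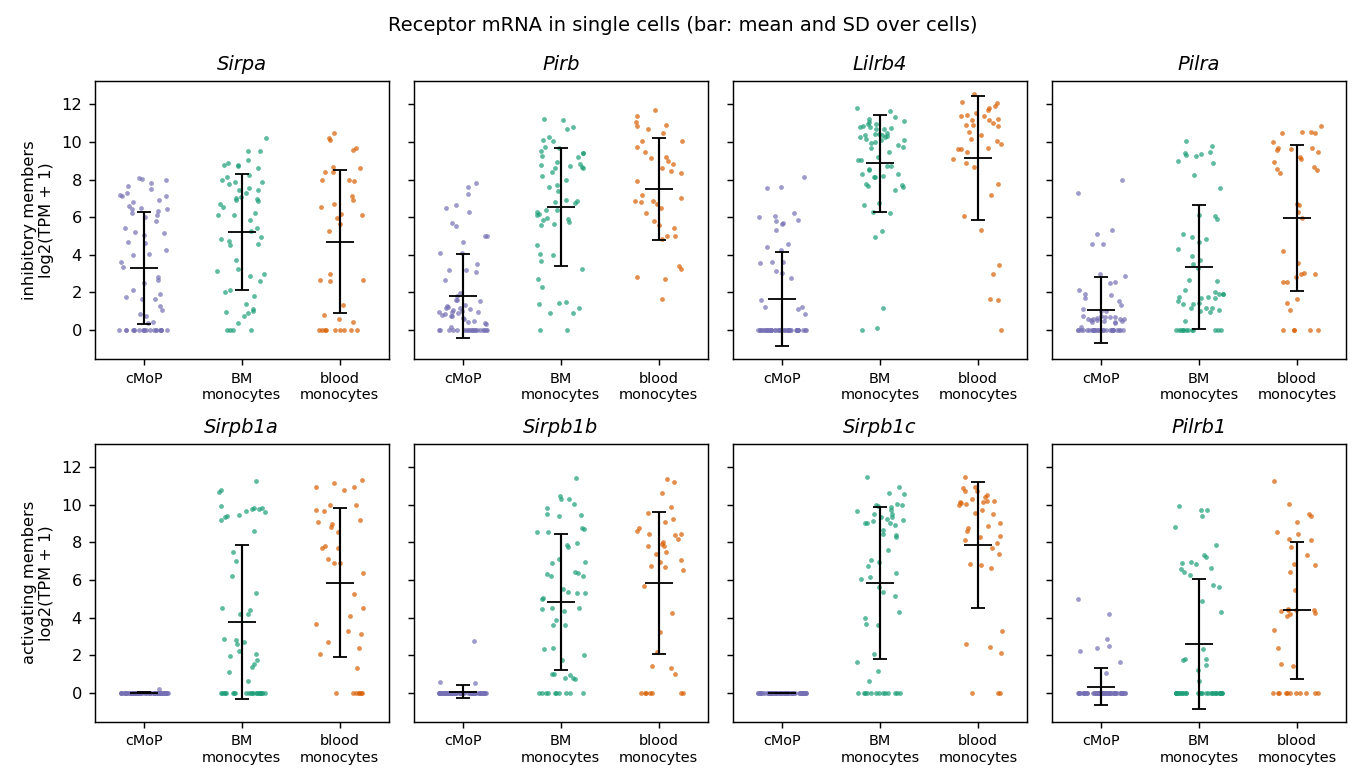
Level of each receptor gene in every cell as log2(TPM + 1), by sorted group, with inhibitory members in the upper and activating members in the lower row; points are cells and bars are the mean and SD over cells (66 cMoP, 57 BM monocytes, 38 blood monocytes). Lilrb4 has the highest monocyte means (8.86 and 9.14), and Sirpb1c lies at 0 in all 66 cMoP.

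Among the inhibitory members, Sirpa stood apart in that it was already detected in most progenitors. Its TPM ran from 0 to 270.1 in cMoP (median 5.69), from 0 to 1209 in BM (median 68.1) and from 0 to 1405 in blood monocytes (median 54.3). The ranges overlapped in all 3 groups. Its mean log2(TPM + 1) was 3.29 ± 2.98 in cMoP (SD, n = 66 cells), 5.22 ± 3.06 in BM (SD, n = 57 cells) and 4.70 ± 3.79 in blood monocytes (SD, n = 38 cells). It exceeded 1 TPM in 63.6% of cMoP (95% exact Clopper-Pearson interval 50.9 to 75.1%, which covers the counting of cells only), 86.0% of BM (74.2 to 93.7%) and 68.4% of blood monocytes (51.3 to 82.5%). Blood monocytes lay 0.52 below BM monocytes on the mean log2 scale. The sign turned with the measure: the log2 ratio of the mean TPM values, 217.1 in blood and 156.6 in BM, was 0.47. Among cells above 1 TPM the medians were 129.8 TPM in blood and 103.1 TPM in BM, within wide and overlapping ranges.

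Pirb, the MHC class I receptor, was low in progenitors and detected in nearly every monocyte. Its TPM ran from 0 to 225.4 in cMoP (median 0.96), from 0 to 2362 in BM (median 114.8) and from 2.16 to 3364 in blood monocytes (median 191.9). More than 1 TPM was listed in 30 of 66 cMoP, 53 of 57 BM and 38 of 38 blood monocytes. Blood and BM monocytes overlapped over almost their whole range, and their means, 7.52 ± 2.71 and 6.57 ± 3.14 (SD, n = 38 and 57 cells), differed by 0.95.

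Lilrb4 was the most abundant of the 8 genes in monocytes. Its TPM ran from 0 to 281.6 in cMoP (median 0), from 0 to 3544 in BM (median 841.5) and from 0 to 6085 in blood monocytes (median 1238). Only 24 of 66 cMoP exceeded 1 TPM, and 0 of 66 reached 1000 TPM, which 26 of 57 BM and 21 of 38 blood monocytes did. The mean log2(TPM + 1) was 1.65 ± 2.50 in cMoP, 8.86 ± 2.58 in BM and 9.14 ± 3.29 in blood monocytes (SD, n = 66, 57 and 38 cells). The difference of 7.21 between BM monocytes and cMoP was the largest of the 8 genes, and the 0.28 between blood and BM monocytes was small beside the SD over cells. Among cells with 4500 to 6000 genes the latter was 1.27.

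Pilra had the largest difference between BM and blood monocytes of the 8 genes on the mean log2 scale, but not among cells with 4500 to 6000 genes, where it was 2.43 and that of Sirpb1c 4.13. Its TPM ran from 0 to 248.6 in cMoP (median 0.37), from 0 to 1077 in BM (median 2.79) and from 0 to 1846 in blood monocytes (median 100.6). The means were 1.05 ± 1.75, 3.36 ± 3.31 and 5.97 ± 3.87 (SD, n = 66, 57 and 38 cells), a difference of 2.61 between the monocyte groups. The share of cells above 1 TPM moved less, from 75.4% in BM (62.2 to 85.9%) to 86.8% in blood (71.9 to 95.6%). The share above 10 TPM went from 38.6% to 63.2%, so BM monocytes often held the transcript at a level of a few TPM. The groups overlapped throughout.

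Sirpb1a, Sirpb1b and Sirpb1c were at or near 0 in cMoP. Sirpb1c was listed at 0 in 66 of 66 cMoP, and Sirpb1a reached at most 0.13 TPM there. By the counting of cells alone, 0 of 66 allows up to 4.55% of cMoP above 1 TPM for each (3 cells of 66). This does not bound the share of cells that hold the transcript, since the depth is unknown. Sirpb1b exceeded 1 TPM in 1 of 66 cMoP, at 5.77 TPM. These are values of the table, and no fold is given against a group at 0.

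In BM monocytes Sirpb1c ran from 0 to 2823 TPM with a median of 121.7, Sirpb1b from 0 to 2692 with a median of 32.4, and Sirpb1a from 0 to 2429 with a median of 3.11. In blood monocytes Sirpb1c ran from 0 to 2798 TPM with a median of 488.0, Sirpb1b from 0 to 2674 with a median of 148.8, and Sirpb1a from 0 to 2573 with a median of 116.9. The highest cells were thus alike in both groups, and the medians were higher in blood. Sirpb1c exceeded 1 TPM in 75.4% of BM (62.2 to 85.9%) and 92.1% of blood monocytes (78.6 to 98.3%), Sirpb1a in 59.6% (45.8 to 72.4%) and 81.6% (65.7 to 92.3%), and Sirpb1b in 71.9% (58.5 to 83.0%) and 81.6% (65.7 to 92.3%). The differences in mean log2(TPM + 1), blood minus BM, were 2.09 for Sirpb1a, 2.06 for Sirpb1c and 0.99 for Sirpb1b, the last just short of the size rule. On the log2 ratio of mean TPM they were 0.79, 0.84 and 0.52.

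Their sum depends little on how reads were split among the copies, whose models have the same length. It ran from 0 to 5.77 TPM in cMoP, from 0 to 5440 in BM (median 316.8) and from 3.41 to 4653 in blood monocytes (median 1259). It exceeded 1 TPM in 1 of 66 cMoP, 50 of 57 BM and 38 of 38 blood monocytes. The cMoP and blood ranges met only in the interval between 3.41 and 5.77 TPM. The mean log2 of the sum was 7.28 ± 3.76 in BM and 9.18 ± 2.91 in blood monocytes (SD, n = 57 and 38 cells), a difference of 1.91.

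Pilrb1, the activating partner of Pilra, was the least detected of the 8 in BM monocytes. Its TPM ran from 0 to 30.4 in cMoP and from 0 to 971.1 in BM monocytes, with a median of 0 in both, and from 0 to 2489 in blood monocytes with a median of 19.5. It exceeded 1 TPM in 12.1% of cMoP (5.38 to 22.5%), 43.9% of BM (30.7 to 57.6%) and 71.1% of blood monocytes (54.1 to 84.6%). Its mean log2(TPM + 1) was 0.33 ± 0.99, 2.60 ± 3.47 and 4.38 ± 3.62 in this order of groups (SD, n = 66, 57 and 38 cells). Among cells with 4500 to 6000 genes above 1 TPM, the blood minus BM difference of 1.78 fell to 0.25. Summed with its neighbour Pilrb2, the blood mean exceeded the BM mean by 2.26.

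Within cMoP, the order of mean log2 levels was Sirpa (3.29), Pirb (1.81), Lilrb4 (1.65), Pilra (1.05), Pilrb1 (0.33) and then Sirpb1a, Sirpb1b and Sirpb1c near 0. Each neighbour lay within an SD of the next. In blood monocytes it was Lilrb4 (9.14), Sirpb1c (7.87), Pirb (7.52), Pilra (5.97), Sirpb1a (5.84), Sirpb1b (5.83), Sirpa (4.70) and Pilrb1 (4.38), again with every neighbour within an SD. Sirpa thus went from the first place in cMoP to the seventh in blood. Of cMoP with any of the 8 above 1 TPM, 27 of 61 had Sirpa as their most abundant, against 2 of 57 BM and 2 of 38 blood monocytes. Lilrb4 was the most abundant in 30 of 57 BM and 21 of 38 blood monocytes.

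Single monocytes held most of these genes together. The median cMoP had 2 of the 8 above 1 TPM, with a range of 0 to 4. BM monocytes had a median of 6 with a range of 3 to 8, and blood monocytes a median of 7 with the same range. All 8 were above 1 TPM in 8 of 57 BM and 12 of 38 blood monocytes. At a threshold of 10 TPM the medians were 1, 5 and 6. These counts are descriptions only, since the members were chosen with their levels known. Sirpb1a, Sirpb1b and Sirpb1c also passed the filter only through the monocytes.

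**Figure D2:**
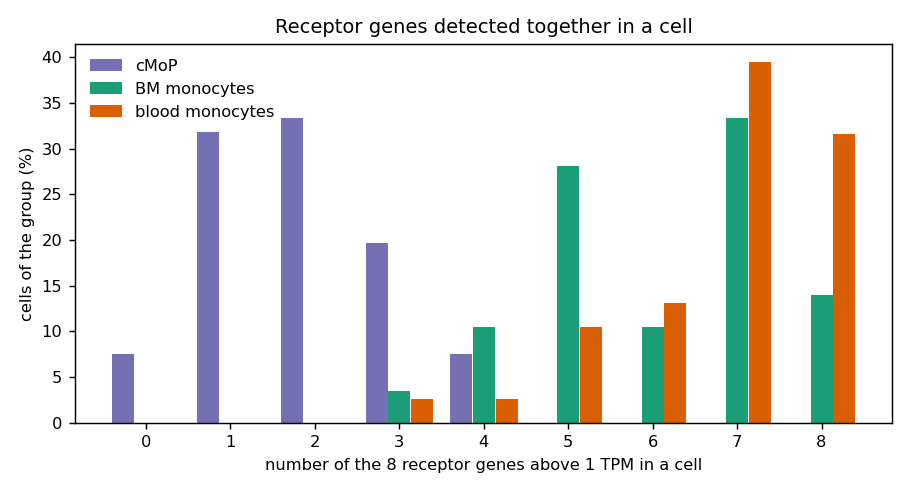
Share of the cells of each group (percent, bars from 0) by the number of the 8 receptor genes above 1 TPM in the cell. The cMoP bars lie between 0 and 4 genes, and the bars of both monocyte groups between 3 and 8.

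The 3 activating SIRP rows varied together among cells. In BM monocytes all 3 exceeded 1 TPM in 29 of 57 cells and 0 of them did in 7. In blood monocytes all 3 were detected in 24 of 38 cells and every cell had at least 1. At 10 TPM, each of the 23 BM and 25 blood monocytes with Sirpb1a also had Sirpb1c, while 17 BM and 6 blood monocytes had Sirpb1c without Sirpb1a. Across BM monocytes Pearson's r of log2(TPM + 1) was 0.71 for Sirpb1a with Sirpb1b, 0.70 for Sirpb1a with Sirpb1c and 0.53 for Sirpb1b with Sirpb1c (n = 57 cells). Across blood monocytes these were 0.28, 0.59 and 0.49 (n = 38 cells). The cells of a group share a sort and a flow cell, and the rows share sequence, so these correlations are descriptions.

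The highest of the 3 rows in a cell is called the leading row here, and it depends on the uncertain split of shared reads. Only 1 of the 3 rows exceeded 1 TPM in 11 BM and 3 blood monocytes. In BM monocytes with any of the 3 above 1 TPM, the leading row held a median of 67.8% of their summed TPM, and in blood monocytes 64.6%. Sirpb1c led in 26 of 50 such BM cells and 25 of 38 blood cells, Sirpb1b in 14 and 5, and Sirpb1a in 10 and 8. Over all cells Sirpb1c made up 44.1% of the summed TPM in BM and 47.1% in blood.

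Outside the activating SIRP rows, the 8 genes showed little correlation within a group. Of the other 25 pairs, 25 in BM and 23 in blood monocytes had an r between -0.3 and 0.3, with medians of 0.05 and 0.08. Over all 161 cells, where the step from progenitor to monocyte enters, r for the same pairs ran from 0.12 to 0.62. Some near copies were correlated within groups, Lilrb4 with Gp49a at 0.52 in BM and 0.60 in blood, and Pilrb1 with Pilrb2 at 0.62 and 0.46. Pirb with Pira2 was at 0.04 in both monocyte groups, but at 0.43 across cMoP (n = 66 cells). Pirb with Lilra6 was at -0.10 in BM and 0.30 in blood monocytes. For the partners Pilra and Pilrb1, r was 0.25 in BM and 0.12 in blood monocytes, too weak to read.

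**Figure D3:**
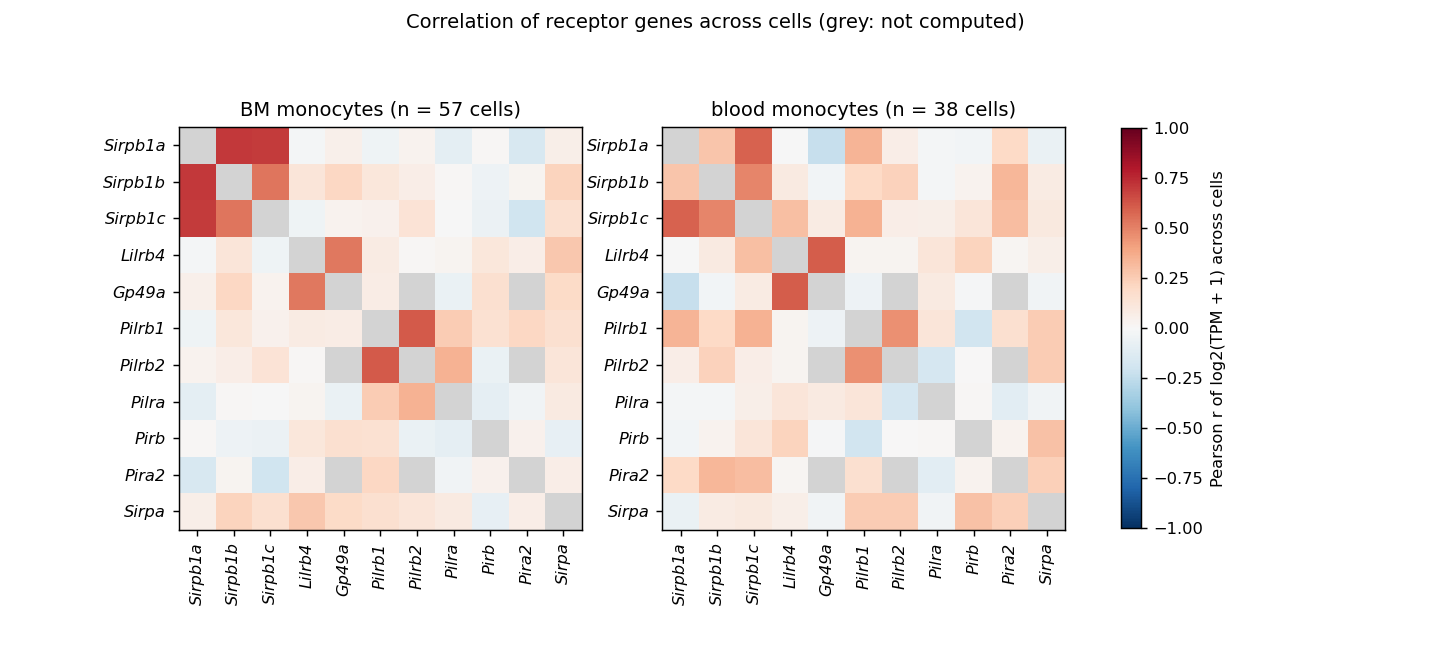
Pearson's r of log2(TPM + 1) across the 57 BM monocytes (left) and 38 blood monocytes (right) for the 8 receptor genes and 3 close relatives; grey squares are the diagonal and pairs not computed. Red blocks join the 3 activating SIRP rows (0.53 to 0.71 in BM), Lilrb4 with Gp49a (0.52 in BM) and Pilrb1 with Pilrb2 (0.62 in BM).

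Inhibitory and activating partners were next set against each other inside each cell. In progenitors Sirpa exceeded the sum of Sirpb1a, Sirpb1b and Sirpb1c in 41 of 42 cMoP with either above 1 TPM. The reverse held in monocytes, where Sirpa was the higher in 19 of 56 BM cells (33.9%, 21.8 to 47.8%) and 7 of 38 blood cells (18.4%, 7.74 to 34.3%). Of the joint TPM of these 4 rows, Sirpa made up 99.8% in cMoP, 14.4% in BM and 12.2% in blood monocytes. The mean of Sirpa minus this sum on the log2 scale went from 3.23 ± 3.04 in cMoP to -2.06 ± 4.35 in BM and -4.49 ± 4.55 in blood monocytes (SD, n = 66, 57 and 38 cells). The progenitor values depend on which rows are summed. With the short-tailed SIRP-like rows Gm5150 and Gm9733 added, a sum chosen after the values were seen, Sirpa was the higher in 34 of 45 cMoP (75.6%, 60.5 to 87.1%), 9 of 56 BM and 1 of 38 blood monocytes, and its share of the joint TPM was 57.7, 8.71 and 6.65%. The mean difference was then 2.03 ± 4.10, -3.82 ± 3.68 and -6.37 ± 4.25, with the same signs.

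The mean differences of the other pairs were smaller than their SDs over cells. This also held for Sirpa minus the sum of Sirpb1a, Sirpb1b and Sirpb1c in BM (-2.06 ± 4.35) and blood monocytes (-4.49 ± 4.55). The SD gives the spread over cells and not the precision of a mean. Pilra exceeded Pilrb1 and Pilrb2 together in 18 of 26 cMoP, 30 of 48 BM and 20 of 37 blood monocytes, and the mean differences of 0.61, 0.28 and 0.62 stood against SDs of 2.02, 4.34 and 5.33. Its share of their joint TPM was 81.0% in cMoP, 44.2% in BM and 54.5% in blood monocytes. Lilrb4 exceeded its near copy Gp49a in 20 of 24 cMoP, 42 of 57 BM and 33 of 37 blood monocytes. The mean differences were 0.99 ± 2.11, 2.22 ± 2.97 and 2.16 ± 3.31 (SD, n = 66, 57 and 38 cells). Gp49a has no ITIM but 42 codons after its most hydrophobic stretch, so it is not called activating here. Pirb exceeded the summed PIR-A rows in 20 of 41 cMoP, 21 of 57 BM and 21 of 38 blood monocytes, with mean differences of 0.23, -1.40 and 0.80, and held 33.8% of their joint TPM in BM and 54.6% in blood monocytes.

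**Figure D4:**
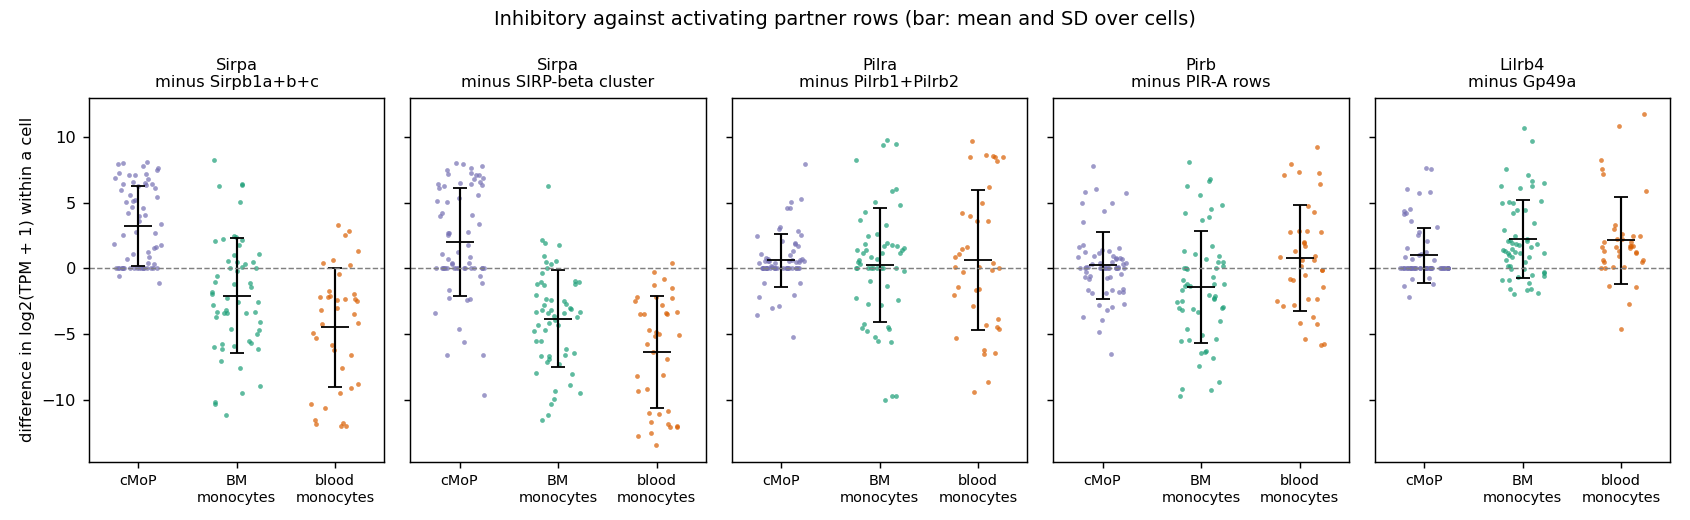
Difference in log2(TPM + 1) within each cell between an inhibitory receptor gene and the sum of its activating counterparts, by group. For Lilrb4 the counterpart is its near copy Gp49a, which has no ITIM but is not called activating here. Points are cells, bars are the mean and SD over cells, and the dashed line marks equal levels. The difference of Sirpa from Sirpb1a, Sirpb1b and Sirpb1c has a mean of 3.23 in cMoP and -4.49 in blood monocytes, that from the whole SIRP-beta cluster (with Gm5150 and Gm9733) 2.03 and -6.37, and the means of the other 3 pairs lie between -1.40 and 2.22.

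The rows of the PIR locus did not all differ in the same direction between BM and blood monocytes. The PIR-A rows (Pira2, Lilra6 and the predicted genes Gm14548, Gm15448 and Gm15922) belong to the activating receptors that pair with Fcer1g. Their sum had a median of 0.40 TPM in cMoP, 469.7 in BM and 139.8 in blood monocytes, and its mean log2 was 1.24 lower in blood than in BM. Of the single rows, Lilra6 was lower in blood by 1.68, Gm14548 by 1.56 and Pira2 by 1.51, while Gm15922 was higher by 1.02. Pirb, in contrast, was higher in blood by 0.95. The sum of Pirb and the PIR-A rows, which depends less on the split of shared reads, had medians of 810.6 TPM in BM and 830.0 in blood and differed by -0.31. Pirb shares 45.2% of its 50-base words with PIR-A rows, and the part of the split of shared reads in these differences was not tested.

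Near copies of the members were also higher in monocytes than in cMoP. Of 10 close relatives in the table, 9 were measured; Lilra5 was listed at 0 in all 161 cells. In BM monocytes 8 of 9 were higher than in cMoP by 1 or more and 0 lower, with a median difference of 3.43, beside 3.94% and 30.8% of all measured genes. These relatives share sequence with the members and are not independent of them. Gm9733 and Gm5150, SIRP-like genes beside the Sirpb1 cluster, were higher in blood than in BM monocytes by 2.52 and 2.27. The summed SIRP-beta cluster (Sirpb1a, Sirpb1b, Sirpb1c, Gm5150 and Gm9733) had a median of 1208 TPM in BM and 2749 in blood monocytes. Gm9733 reached 809.0 TPM in cMoP, where 13 of 66 cells exceeded 1 TPM. It shares 0% of its 50-base words with the other SIRP rows, and its model in GENCODE M21 is only 618 bases long, so its TPM rests on few bases.

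Promoter sequences were searched for letters bound by myeloid factors. RefSeq promoter windows (GRCm38.p6, 250 bases before to 50 after the start) were found for 6 of the 8 members; Sirpa and Lilrb4 had no entry. The letters GAGGAA, the core bound by PU.1, the ETS factor of the myeloid lineage, were searched on both strands and occur in 28.3% of 32851 promoters. They occur 3 times each in Pirb, Pira2, Lilra6 and Gm14548, 4 times in Gm15448 and 1 time in Pilra. In Pilrb1, Sirpb1a, Sirpb1b and Sirpb1c, and in the relatives Pilrb2, Gp49a and Gm5150, they occur 0 times. The PIR genes are not independent here, since the bases around 3 of their sites are nearly the same. The windows below show the same site, in capitals, in an inhibitory and an activating gene of the locus.
Pirb, chr7:3720485-3720514, minus strand: agtcacaccattGAGGAAgtcagagcatgg
Pira2, chr7:3845182-3845211, minus strand: agtcacaccattGAGGAAgtcagagcatgg
The letters GGAAGT are another ETS core that can overlap GAGGAA by its GGAA. They occur in 23.8% of promoters and 1 time in each of the 6 members with a window. These sites are not independent, since the bases around them are the same in Pilra and Pilrb1 and nearly the same in the Sirpb1 genes. In Pilra and Sirpb1b the letters lie after the start. In the activating SIRP genes they lie on the opposite strand and are shown as the reverse complement, ACTTCC.
Sirpb1a, chr3:15426466-15426495, minus strand: ataagtcacaatACTTCCtttctctacatg
Sirpb1c, chr3:15848474-15848503, minus strand: acaagtcacaatACTTCCtttctctacgtg
The C/EBP-type letters TTGCNNAA (10.8% of promoters) occur 1 time each in Pilra and Pilrb1, within the same bases, and 0 times in the other 4. The AP-1-type letters TGANTCA (7.81%) occur in 0 of 6. A match is a run of letters and was not tested for binding.

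The adaptors of the activating members were abundant in all 3 groups. Tyrobp ran from 63.1 to 2987 TPM in cMoP with a median of 1394, from 1323 to 13103 in BM with a median of 3854, and from 34.9 to 10039 in blood monocytes with a median of 4777. It was above 0 in every cell. Fcer1g had medians of 880.5, 3190 and 3355 TPM. In BM monocytes both exceeded their cMoP level, by 1.71 and 2.42 in mean log2(TPM + 1), and differed by 0.10 and -0.07 between blood and BM monocytes. In cMoP Tyrobp was above 1 TPM in 66 of 66 cells, against 1 of 66 for the sum of Sirpb1a, Sirpb1b and Sirpb1c.

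The phosphatases of the inhibitory members moved otherwise. Ptpn6 (SHP-1) had medians of 313.1 TPM in cMoP, 462.8 in BM and 174.6 in blood monocytes, and its mean log2 in blood was 1.19 below BM, while its mean TPM, 621.5 and 600.6, differed little. Ptpn11 (SHP-2) was low, with a median of 1.55 TPM in cMoP and 0 in both monocyte groups, and its mean log2 was 1.21 lower in BM monocytes than in cMoP. Within blood monocytes Sirpa and Ptpn6 had an r of 0.56 (n = 38 cells), and no other member reached 0.3 with Ptpn6 in either monocyte group. Of 24 measured adaptors and signalling enzymes, 8 were higher and 4 lower by 1 or more in BM monocytes than in cMoP, and 2 and 3 in blood than in BM. Over all measured genes these shares were 3.94% and 30.8%, and 1.96% and 9.66%. The Src family kinases Fgr and Lyn, which phosphorylate such motifs, exceeded their cMoP level in BM monocytes by 5.12 and 2.51, and Fgr was listed at 0 in all 66 cMoP. Fyb, an adaptor of integrin signalling, was higher by 3.65 and by another 1.30 in blood. Btk and Vav1 were lower in BM monocytes than in cMoP by 1.71 and 2.18 in size.

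Transcripts of some ligands were present in the same cells. Of 17 ligand genes on the list, 16 had a row and 11 were measured. Cd47, the ligand of Sirpa, had medians of 182.0 TPM in cMoP, 172.9 in BM and 150.8 in blood monocytes, and its mean log2 differed by less than 0.3 between any pair of groups. The MHC class I genes bound by Pirb had higher medians in each later group: H2-D1 from 730.3 to 2495 and 3900 TPM, and H2-K1 from 355.2 to 634.1 and 1338 TPM. Of 11 measured ligand genes, 2 were higher by 1 or more in BM monocytes than in cMoP (Fn1 by 6.32 and H2-D1 by 2.19) and 0 lower. Over all measured genes 3.94% were higher and 30.8% lower. Fn1 encodes fibronectin, on the list as a ligand of Lilrb4, and it was lower in blood than in BM monocytes by 1.85 in size. Cd99 has no row in the table.

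Other receptors of both kinds did not move as one. Of 22 measured inhibitory receptors with ITIMs outside these families, 5 were higher and 3 lower in BM monocytes than in cMoP by 1 or more, and 6 and 3 in blood than in BM. Over all measured genes 3.94% were higher and 30.8% lower in the first comparison, and 1.96% and 9.66% in the second. The C-type lectins Clec4a3 and Clec4a1 were higher in BM monocytes by 6.53 and 4.27, and Pecam1, an adhesion receptor, averaged 62.9 TPM in cMoP and 1.31 in BM monocytes. Fcgr2b, the inhibitory Fc receptor, was higher in blood than in BM monocytes by 2.45. Of 19 other receptors that pair with Tyrobp or Fcer1g, 5 were higher and 3 lower in BM monocytes than in cMoP, and 4 and 2 in blood than in BM. The shares of all measured genes given above apply to these counts too. Trem3 and Clec5a had mean levels of 150.0 and 143.4 TPM in cMoP, 84.8 and 108.7 in BM and 16.2 and 22.9 in blood monocytes. Fcgr1 and Treml4 were listed at 0 in all 66 cMoP and were higher in blood than in BM monocytes by 1.51 and 2.58. The median difference of these lists for BM monocytes minus cMoP was 0.19 and 0.23, beside -0.45 over all measured genes. That of the 8 receptors was 4.25, but they were chosen with their levels known, so nothing is read from this gap.

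**Figure D5:**
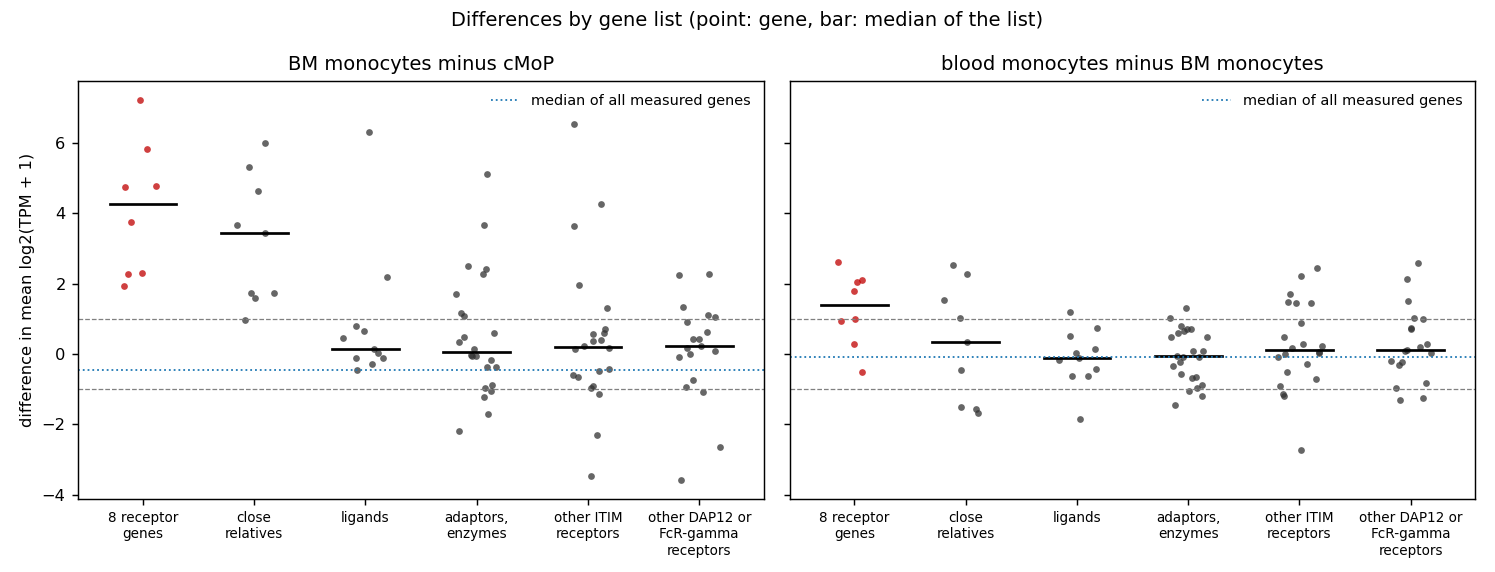
Difference in mean log2(TPM + 1) of each measured gene for BM monocytes minus cMoP (left) and blood minus BM monocytes (right), by gene list; points are genes, bars list medians, dashed lines the size rule of 1 and the dotted line the median of all 14003 measured genes. The 8 receptor genes have a median of 4.25 on the left and 1.39 on the right, and both panels share the BM monocytes.

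The genes most like each member over all 161 cells were taken from 8400 candidates that exceeded 1 TPM in 25% or more of a group. For Sirpb1c they were Wfdc17 (Pearson's r 0.76), Ccl6 (0.72) and Lyz2 (0.71), and for Lilrb4 Gp49a (0.80), Lyz2 (0.79) and Ccl6 (0.74). Lyz2, the monocyte and macrophage lysozyme, was also first for Pirb (0.64) and Pilra (0.47). The pattern of Sirpa had no close match, with Ctss first at 0.35. Within BM monocytes r was lower, at 0.48 for Sirpb1c with Wfdc17, 0.27 for Lilrb4 with Lyz2 and 0.52 for Lilrb4 with Gp49a. With Lyz2 it was only 0.14 for Pirb and 0.11 for Pilra in BM, and 0.33 and 0.15 in blood monocytes. For Lilrb4 with Ccl6 r was 0.0071 in BM and 0.42 in blood monocytes. For Pilrb1 with Pilrb2, its first match, r changed little (0.64 over all cells, 0.62 in BM monocytes). The part of the difference between progenitors and monocytes in these values was not tested. Sirpb1a also matched Apoe (0.59 over all cells, 0.49 in BM and 0.03 in blood monocytes).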

How the data were processed

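The authors deposited TPM values, 1 column per cell for 161 cells, and no counts. Per the submitters' processing notes they used RSEM 1.2.19 and the build GRCm38. For the aligner and annotation: not given in the sources used here. Column sums ran from 997939 to 999955 TPM, and no 2 columns were identical. TPM keeps no read depth, so no count test was possible and precision is given as the SD over cells or a 95% exact binomial interval over cells. An exact 0 can be a failed estimate: S100a9 is listed at 0 in every cell.

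Groups were taken from the labels. Differences are later minus earlier group in the mean of log2(TPM + 1), and the pseudocount of 1 understates differences of low genes. The functions were tested on simulated data. The members and lists were chosen with earlier results of these data known. The text names the members, their relatives, Cd47, Cd99, Tyrobp, Fcer1g, Ptpn6 and Ptpn11, up to 4 genes per list and comparison with the largest difference, and the 3 genes most correlated with a member. Apoe and Top2a as partners of the SIRP genes, and Btk and Vav1, were chosen after their values were seen. Kit, Csf1r and Ly6c2 are gate genes, and genes of the other cell types come from marker lists. Reading frames are the longest from an ATG in a GENCODE M21 transcript. Analyses used Python 3.11.15, pandas 2.3.3, numpy 2.4.6, scipy 1.17.1 and Biopython 1.88. Alternatives changed the pseudocount (0.1), the averaging, the gene filter, the scaling and the set of cells.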

Additional observations from a re-analysis of the deposited data

How the results depend on the processing

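Taking every gene of the table or a 25% filter cannot change the difference of a gene, and both kept all 8. The other alternatives were pseudocounts of 0.1 and 10, the ratio of mean TPM, median-ratio scaling and cells with 4500 to 6000 genes. Libraries with a high mitochondrial or a low ribosomal share, or the 6 without a flow cell, were also left out. All 8 receptor genes remained higher by 1 or more in BM monocytes than in cMoP under each of these. The same held for blood monocytes against cMoP, except that 7 of 8 were left, with Sirpa at 0.90, when the limits on genes per cell and on mitochondrial and ribosomal share were combined, an alternative chosen after seeing the data. For BM monocytes the smallest differences were 1.19 for Sirpa, 1.28 for Pilra and 1.29 for Pilrb1. Between blood and BM monocytes 4 genes were higher by 1 or more, but 2 on the log2 ratio of mean TPM, and 1 gene (Sirpa) was lower by 1 or more with a pseudocount of 0.1, against 0. Sirpa ran from -1.06 to 0.47 there, Sirpb1c from 0.84 to 4.13, Lilrb4 from 0.28 to 1.27 and Pilrb1 from 0.25 to 2.64; the cause was not tested. The median of all genes for BM monocytes minus cMoP moved from -0.45 to -0.05 in cells with 4500 to 6000 genes, and that of the 8 receptors from 4.25 to 3.73. No paired analysis was possible because the labels name no animal and pair no cells across groups. Depth limits every 0, since it is unknown.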

Other observations

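Within BM monocytes Sirpb1a, Sirpb1b and Sirpb1c lay higher in cells with more Apoe and lower in cells with more Top2a, a gene of dividing cells. Pearson's r with Apoe was 0.49, 0.34 and 0.41 in this order of genes, and with Top2a -0.37, -0.35 and -0.40 (n = 57 cells). Blood monocytes did not show it: r was 0.03, -0.15 and 0.17 with Apoe, and -0.0017, -0.23 and 0.09 with Top2a (n = 38 cells). Apoe and Top2a were picked after the values were seen. With the number of genes above 1 TPM in the cell, r in BM monocytes was -0.28, -0.14 and -0.34.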
